A study of Oryctolagus cuniculus with 8 samples.

Results

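The immediate early genes followed here in the rabbit retina were EGR1, FOS, FOSB, JUNB, JUN, IER2, NR4A1, ATF3, EGR3 and ARC. Members were taken by gene symbol from the deposited expression table, and 7 of the 10 symbols were found among 25666 genes. JUNB, IER2 and ARC were not analysed here, because these symbols stood beside none of its genes, and 5996 protein-coding genes of the table carry no symbol at all. The genes were chosen for their measured values in these same 8 libraries, and above all for the spread between retinas of one diet. All values of the members are therefore given as a description. The fit across all genes includes them, and nothing is read from its calls on them.

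RNA was sequenced from retinas of wild-type male Chinchilla rabbits, with 2 retinas for each of 4 diets. The rabbits were 12 to 16 weeks old at the start, ate their diet for 6 months under 12 h of light and 12 h of dark, and were about 10 months old at collection. The control group received standard chow (normal diet, ND). The high-fat diet (HFD) was chow with 10% lard and 0.5% cholesterol, the high-sucrose diet (HSD) was chow with 40% sucrose, and the combined diet (HFSD) held 35% sucrose on top of 10% lard and 0.5% cholesterol. The study asked how each diet changed the transcriptome of the retina in a model of age-related macular degeneration. Whether the 2 retinas of a diet came from separate rabbits is not given in the sources used here, so any p-value below measures only the spread between these samples, which may be technical. The hour of collection and the light the animals saw just before it are not given in these sources either, and their part in the values was not tested.

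Immediate early genes are silent or low in resting cells and are transcribed within minutes of a stimulus, without new protein synthesis. Calcium entry and growth factor signals reach them through MAP kinases, SRF and CREB, and their own products and a set of phosphatases shut them off again. Most encode transcription factors. In the retina they are known to respond to light, to neuronal activity and to injury, and they also respond to the handling of tissue. FOS, FOSB, JUN and JUNB join in pairs as the AP-1 factor, EGR1 and EGR3 are zinc finger factors, NR4A1 is an orphan nuclear receptor, ATF3 is a stress-induced bZIP factor, IER2 is a nuclear protein, and ARC acts at synapses.

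Expression is given as FPKM, the fragments on a gene scaled by the length of its model and the depth of the library, so levels may be set side by side between genes. Of the 7 members found, 6 reached at least 1 FPKM in all 8 libraries and entered the comparison of 12204 protein-coding genes. EGR3 did not enter it. The depths that turn the FPKM values into whole fragments ran from 15764577 to 22785832. Which total of the reads they are was not determined, and in 2 libraries the fragments summed over genes exceed them. Single retinas stood apart in these data: HSD replicate 2 held muscle genes, ND replicate 1 astrocyte and myelin genes, and HFD replicate 2 a group of early genes, so results are also given with each retina left out.

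EGR1 was the most abundant member and the only one that was lower in every enriched-diet retina than in both ND retinas. It is an activity-dependent zinc finger factor that in the retina is known from amacrine and bipolar cells. Its level was 1548 FPKM in ND replicate 1 and 468 FPKM in ND replicate 2. The HFD retinas had 28.9 and 242 FPKM, the HSD retinas 366 and 159, and the HFSD retinas 375 and 131. The ND retinas thus lay above all others, yet they were 3.31-fold apart, and the HFD retinas were 8.38-fold apart. These levels rest on 927 to 48616 fragments over a gene model of 1605 bases. The highest and the lowest library differed 53.5-fold. From high to low, the means were 1008 ± 764 FPKM (ND), 263 ± 147 (HSD), 253 ± 173 (HFSD) and 136 ± 151 (HFD; SD, n = 2 each), and no step between neighbours in this order was larger than the larger of their SDs.

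FOS, a partner in AP-1, showed the widest gap between retinas of one diet. The ND retinas had 285 and 51.3 FPKM, and the HFD retinas 10.0 and 222. Values of 90.9 and 54.2 FPKM were measured under HSD, and of 63.6 and 60.6 under HFSD. The HFD retinas held both the lowest value of all 8 and the second highest, 22.2-fold apart, while the HFSD retinas were 1.05-fold apart. HSD and HFSD lay between the ND retinas throughout. The gene model of FOS is 2912 bases long, and 582 to 16257 fragments stand behind these levels.

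FOSB, another AP-1 partner, was also highest in ND replicate 1 and lowest in HFD replicate 1, at a lower level than FOS. The ND retinas had 170 and 19.5 FPKM, the HFD retinas 2.68 and 24.8, the HSD retinas 8.33 and 3.47, and the HFSD retinas 12.7 and 10.8. ND replicate 1 alone stood 6.84-fold above the next retina. Both HSD and both HFSD retinas were below both ND retinas, whereas the HFD retinas lay on either side of ND replicate 2. FOSB had the largest range among the members, 63.3-fold between highest and lowest, on 51 to 3160 fragments. Its means, from high to low, were 94.6 ± 106 FPKM (ND), 13.7 ± 15.6 (HFD), 11.8 ± 1.37 (HFSD) and 5.9 ± 3.44 (HSD; SD, n = 2 each), and only the step from HFSD to HSD was larger than the larger SD of its groups.

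JUN, the partner of the FOS proteins in AP-1, varied least among the 6. Both ND retinas, at 118 and 67.8 FPKM, and both HFD retinas, at 64.1 and 95.8, spanned a wider range than HSD (61.9 and 67.8) and HFSD (62.6 and 61.8). The range over all retinas was 1.9-fold. Both HFSD retinas were below both ND retinas by a margin smaller than the ND spread, and the retinas of the other diets overlapped ND.

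NR4A1 and ATF3 differed from the AP-1 and EGR1 group in the retina that held their peak. NR4A1, which is induced by calcium and growth factor signals, had 31.6 and 10.5 FPKM in the ND retinas, 13.7 and 95.8 in the HFD retinas, 11 and 14.6 in the HSD retinas, and 18.1 and 8.97 in the HFSD retinas. HFD replicate 2 stood 3.03-fold above the next retina, ND replicate 1. ATF3, which cells induce under stress and injury, had 9.7 and 7.63 FPKM in the ND retinas, 7.74 and 53.5 in the HFD retinas, 7.49 and 5.89 in the HSD retinas, and 5.21 and 5.94 in the HFSD retinas. HFD replicate 2 stood 5.52-fold above the next retina for ATF3, and the other 7 retinas lay close together. Both HSD and both HFSD retinas were below both ND retinas for ATF3. Its mean of 8.66 ± 1.47 FPKM in ND was above that of 6.69 ± 1.13 in HSD (SD, n = 2 each) by more than either SD.

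EGR3, a relative of EGR1, was scarcely detected. Its values ran from 0 to 0.165 FPKM, which is 0 to 4 fragments per library. The 0 in ND replicate 2 allows a level of up to 0.11 FPKM (3 fragments, counting error only), so no difference was detectable at this depth.

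**Figure D1:**
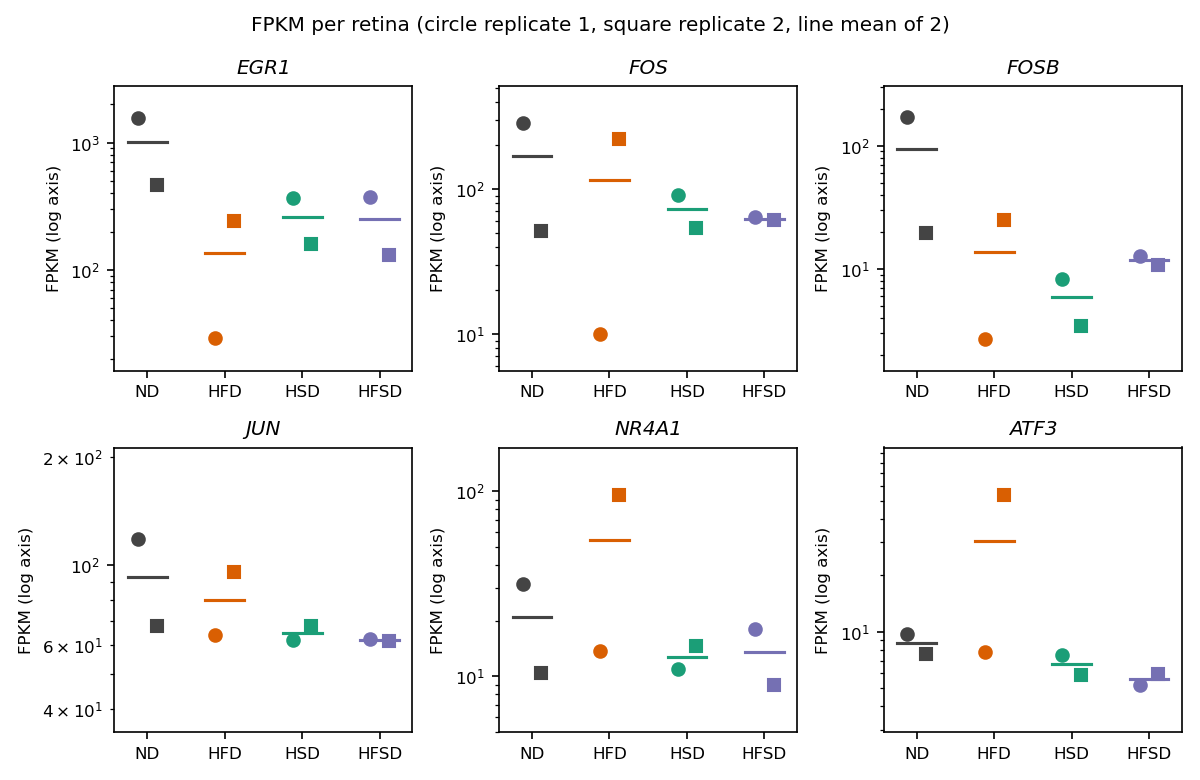
FPKM of the 6 members that entered the comparison, on log axes, for each retina of the 4 diets, with circles for replicate 1, squares for replicate 2 and a line at the mean of 2. ND replicate 1 holds the highest EGR1, FOS, FOSB and JUN, HFD replicate 1 the lowest EGR1, FOS and FOSB, and HFD replicate 2 the highest NR4A1 and ATF3.

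Set against ND in 1 model of all 8 libraries, the members were mostly lower, with standard errors close to or above many of the differences, and 2 of the 6 were higher in HFD. The differences are of mean log2(FPKM + 1), a scale that understates the change of low genes. For HFD, HSD and HFSD respectively, EGR1 differed from ND by -3.32, -1.81 and -1.94, each with an SE of 1.04. In the same order, FOSB differed by -2.6, -3.19 and -2.22 (SE 1.12). FOS differed by -1.31, -0.78 and -0.96 (SE 1.31), and JUN by -0.19, -0.46 and -0.52 (SE 0.272). NR4A1 and ATF3 went the other way in HFD, by 0.96 (SE 0.856) and 1.18 (SE 0.706). In HSD and HFSD the differences of NR4A1 were -0.5 and -0.49, and those of ATF3 -0.33 and -0.55. The median over the 6 members was -0.75 (HFD), -0.64 (HSD) and -0.75 (HFSD), beside medians of 0.0063, -0.0018 and -0.004 over all genes tested. The HFD median turned to 0.064 without ND replicate 1 and to 0.48 without HFD replicate 1. In HSD and HFSD it was -0.12 and -0.26 without ND replicate 1. The 3 comparisons share the ND retinas, ND replicate 1 among them. The interaction of fat and sucrose, the HFSD to HSD difference minus the HFD to ND difference, was 3.2 for EGR1 (SE 1.47), 3.58 for FOSB (SE 1.59) and between -1.4 and 1.13 for the other 4.

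Limma called 0 of the 6 members in each comparison and in the interaction at an adjusted p under 0.05. Over all 12204 genes it called 0.00819% (HFD), 0.0574% (HSD), 0.0164% (HFSD) and 0.00819% (interaction). Limma's voom on fragments recovered from the FPKM steps also called 0 members in each. These counts are given beside the shares of all genes and nothing is read from them, since the members were chosen on the same values.

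The fold rule of the study takes the ratio of mean FPKM + 1 between a diet and ND and calls a gene lower under 0.65 and higher over a limit close to the reciprocal of that. EGR1 and FOSB lay under the lower limit in all 3 diets, with ratios of 0.135 and 0.154 (HFD), 0.261 and 0.0722 (HSD), and 0.252 and 0.133 (HFSD). FOS lay under it in HSD (0.434) and HFSD (0.373), and NR4A1 in HSD (0.626). NR4A1 (2.53) and ATF3 (3.27) lay over the upper limit in HFD. That made 2 lower and 2 higher members in HFD, 4 lower in HSD and 3 lower in HFSD. Over all genes tested, 1.16% were lower and 1.38% higher in HFD, 3.54% lower and 1.76% higher in HSD, and 3.54% lower and 1.52% higher in HFSD. Since the members were chosen on these values, nothing is read from their counts.

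A stricter reading asks that the retinas of a diet do not overlap those of ND. Both HFD retinas were below both ND retinas for 1 member (EGR1), as they were for 13.3% of all genes tested. Both HSD retinas were below for 3 members (EGR1, FOSB and ATF3; 19.7% of all genes), and both HFSD retinas for 4 (EGR1, FOSB, JUN and ATF3; 20.6% of all genes). All 6 enriched-diet retinas were below both ND retinas for EGR1 alone, as for 2.77% of all genes tested.

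Single retinas set the size of most of these differences, and the direction of some. EGR1 stayed lower in every diet whichever retina was left out, but its difference ran from -4.83 to -1.81 in HFD, from -2.68 to -0.95 in HSD and from -2.8 to -1.07 in HFSD. FOSB also kept its direction, between -4.13 and -1.07, -4.72 and -1.66, and -3.75 and -0.69. FOS did not: its difference was 0.86 in HFD without HFD replicate 1, and 0.45 in HSD and 0.27 in HFSD without ND replicate 1. JUN turned to 0.21 in HFD without ND replicate 1 and to 0.099 without HFD replicate 1. Without HFD replicate 2, the differences in HFD were -0.39 for NR4A1 and -0.14 for ATF3. Without HFD replicate 1 they were 2.32 and 2.5. NR4A1 turned to 0.25 in HSD and 0.27 in HFSD without ND replicate 1.

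**Figure D2:**
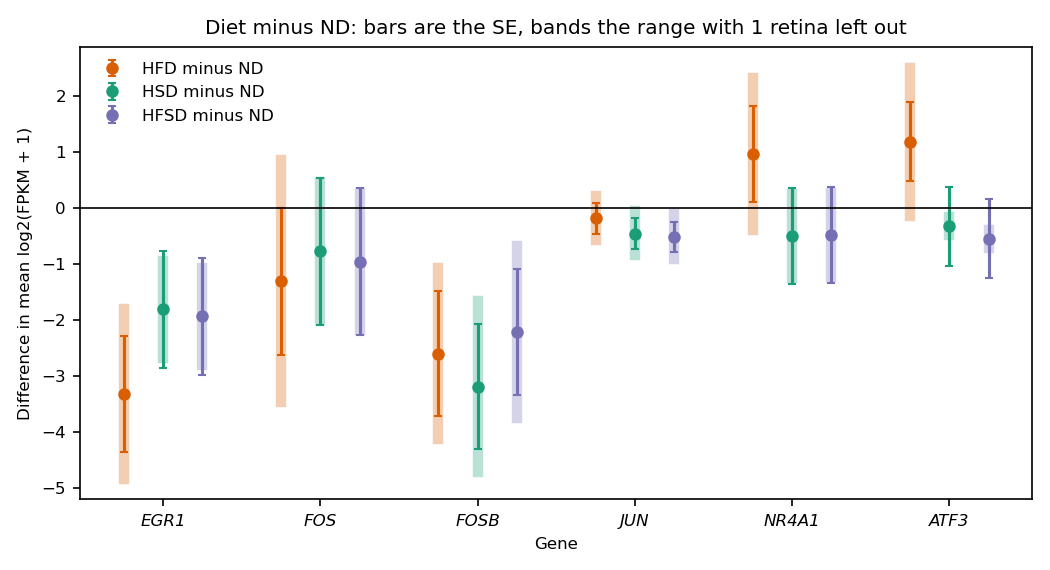
Difference of each diet from ND in mean log2(FPKM + 1) for 6 members (points), with the SE of the model (thin bars) and the range when any 1 retina is left out (pale bands). The bands of EGR1 and FOSB stay below 0 in all 3 diets, and those of FOS cross it in all 3.

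The spread between retinas of one diet was the feature for which these genes were taken, and it was uneven over the diets. The absolute log2 difference between the 2 retinas had a median over the 6 members of 1.62 (ND), 2.76 (HFD), 0.56 (HSD) and 0.19 (HFSD). Over all genes tested the medians were 0.19, 0.23, 0.14 and 0.13. More than 2-fold (in FPKM + 1) separated the retinas for 4 members under ND, 5 under HFD, 2 under HSD and 1 under HFSD, against 3.26%, 2.19%, 2.06% and 1.68% of all genes. The HFSD retinas were thus close for FOS, FOSB, JUN and ATF3, and they differed by 1.51 for EGR1 and by 0.94 for NR4A1 on the log2 scale.

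The residual SD of a gene sums up this spread over the diets. It was 1.78 for FOS, 1.52 for FOSB, 1.41 for EGR1, 1.16 for NR4A1 and 0.95 for ATF3 on the log2 scale, where the trend fitted over all genes gives 0.14 to 0.16 at their levels. These 5 ranked 24, 34, 48, 85 and 134 among 12204 genes. JUN, with 0.35, ranked 1515. The median was 1.28 over the members and 0.17 over all genes.

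**Figure D3:**
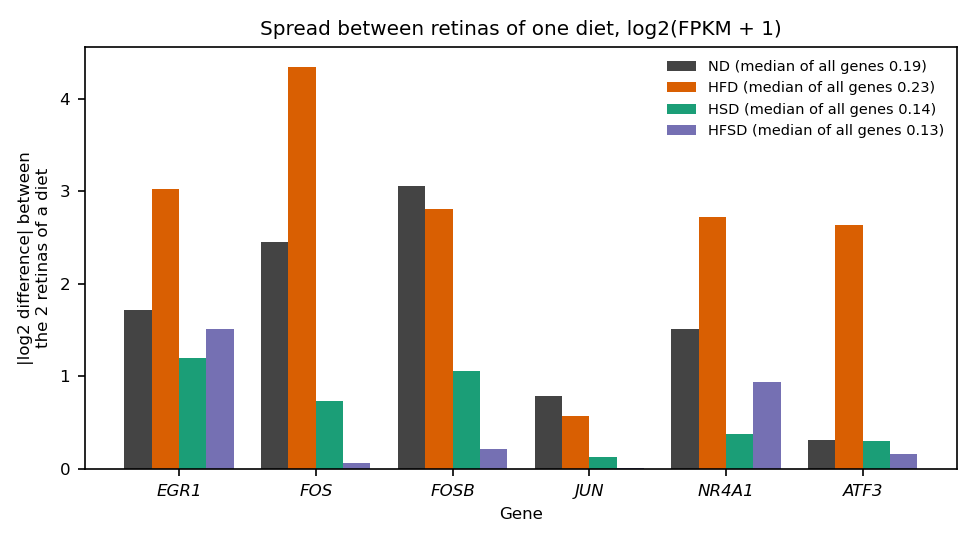
Absolute difference between the 2 retinas of a diet in log2(FPKM + 1), for 6 members (bars from 0, one per diet), with the median over all 12204 genes in the legend. HFD holds the widest gap for EGR1, FOS, NR4A1 and ATF3 (4.34 for FOS), and in HFSD EGR1 (1.51) and NR4A1 (0.94) have the widest.

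The members did not vary as 1 block over the retinas. Over the 8 libraries, Pearson's r of log2(FPKM + 1) was 0.82 between EGR1 and FOS, 0.84 between EGR1 and FOSB, and 0.89 between NR4A1 and ATF3 (Spearman's rho 0.52, 0.76 and 0.38). It was 0.074 between EGR1 and ATF3. These are descriptions over retinas that share diets, and they rest on few of them. Without ND replicate 1 and HFD replicate 1, which lie farthest from the median of EGR1 and of FOS, r was 0.0054 between EGR1 and FOS and 0.45 between EGR1 and FOSB, while FOS with ATF3 went from 0.51 to 0.93. Without ND replicate 1 and HFD replicate 2, which lie farthest for NR4A1, r between NR4A1 and ATF3 was -0.45.

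Among 7625 genes with a symbol and a mean of at least 5 FPKM, the 5 most like EGR1 over the 8 libraries were HIP1 (r = 0.921), ARMCX5 (0.903), FAT1 (0.901), FMNL2 (0.897) and LRP1 (0.891). None of them is an early gene of the lists used here, and they moved far less: FAT1 was 12.2 FPKM in ND replicate 1 and 6.26 FPKM in HFD replicate 1. The 5 most like ATF3 were DCP1B (0.963), NR4A2 (0.962), CHSY1 (0.958), CEBPB (0.947) and AP3B1 (0.942). NR4A2, a close relative of NR4A1, and CEBPB, a bZIP factor of stress and acute-phase responses, peaked in HFD replicate 2 at 31.8 and 26.8 FPKM, where the next highest retina had 9.77 and 5.58 FPKM. Without the 2 libraries farthest from the median, r ranged from 0.35 to 0.83 for the genes like EGR1, and from -0.53 to 0.72 for those like ATF3.

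A wider list of 73 other early-response genes (transcription factors, feedback inhibitors and effectors) was set beside the members, with 57 found and 49 tested. Limma called 0 of the 49 in each diet and in the interaction, as did voom, with 7, 9, 6 and 4 at an unadjusted p under 0.05 for HFD, HSD, HFSD and the interaction. At an unadjusted p under 0.05, limma gave 3 higher and 3 lower genes for HFD, 2 and 6 for HSD, 2 and 4 for HFSD, and 2 and 2 for the interaction. In both directions these are 12.2%, 16.3%, 12.2% and 8.16% of the 49, beside 4.31%, 7.2%, 8.07% and 3.74% of all genes tested. The median difference from ND was 0.18 (HFD), -0.11 (HSD) and -0.13 (HFSD). Without HFD replicate 2 the HFD median was -0.026, so its direction rests on that retina. Under the fold rule 13 of the 49 were higher (26.5%) and 2 lower (4.08%) in HFD, where 1.38% and 1.16% of all genes were. Without HFD replicate 2, in a count made after the data were seen, 2 were higher (ID1 and ID3) and 3 lower. The rule gave 2 higher and 6 lower (12.2%) for HSD and 0 higher and 9 lower (18.4%) for HFSD, where 3.54% of all genes were lower in either diet. The 2 higher under HSD were 0 without HSD replicate 2 and were 3 without HSD replicate 1, ND replicate 1 or ND replicate 2. Both retinas of the diet were below both ND retinas for 8 of them under HFD (16.3%), 12 under HSD (24.5%) and 20 under HFSD (40.8%), beside the shares of all genes given above. The median residual SD of the 49 was 0.28.

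Among the other early transcription factors, 11 of the 14 tested had their highest value in HFD replicate 2. NR4A2 was 9.77 and 4.98 FPKM in ND, 5.41 and 31.8 in HFD, and 4.7 to 5.62 in HSD and HFSD. ID1 and ID3, inhibitors of bHLH factors and targets of BMP signalling, were high in both HFD retinas, at 84.7 and 181 FPKM for ID1 and 109 and 234 for ID3, beside 44.8 and 53.1, and 61.3 and 65.4, in ND. In HFSD both were below both ND retinas, at 20.1 and 24.3 FPKM for ID1 and 25.8 and 22.1 for ID3. The HSD retinas were below and above the ND retinas, with 25.3 and 70.6 FPKM for ID1 and 17.8 and 96.8 for ID3, and HSD replicate 2 held the higher value of each. Their relative ID2 had 16.5 and 17.9 FPKM in the ND retinas, 25.1 and 48.2 in the HFD retinas, 19.4 and 38.8 in the HSD retinas, and 8.7 and 10.8 in the HFSD retinas. Its interaction of fat and sucrose was -2.39 on the log2 scale and was not called (limma, adjusted p = 0.999). MAFF, a small bZIP factor, stood at 1.62 and 0.545 FPKM in HSD and at 1.68 and 7.81 in HFD, beside 3.23 and 1.44 in ND. The listed relatives of EGR1 and FOS were scarce, as was NPAS4. EGR2 stayed at or under 0.881 FPKM, EGR4 at or under 0.282, FOSL1 at or under 0.125 and NPAS4 at or under 0.234, while FOSL2 reached 1.01 FPKM in ND replicate 1 only.

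Of the feedback inhibitors, some peaked in ND as EGR1 did and 7 of 21 in HFD replicate 2 as ATF3 did. DUSP2, a nuclear phosphatase of MAP kinases, had 493 and 198 FPKM in the ND retinas, 59.5 and 124 in the HFD retinas, 119 and 62.9 in the HSD retinas, and 57.6 and 63 in the HFSD retinas. Like EGR1 it was lower in all 6 enriched-diet retinas than in both ND retinas, with differences of -1.85, -1.84 and -2.36 on the log2 scale that were not called. DUSP6, a cytoplasmic phosphatase of ERK, was 33.3 and 55.3 FPKM in ND and 10.7 to 20.3 FPKM in the enriched diets. DUSP4, SRF and the kinase PLK3 were the other 3 genes of the list with all 6 retinas below both ND retinas, which makes 5 of 49, beside 2.77% of all genes tested. DUSP1 and BTG2, in contrast, peaked in HFD replicate 2. DUSP1, a phosphatase of p38 and JNK, was 4.14 and 4.39 FPKM in ND, 4.63 and 55.2 in HFD, and 3.1 to 7.57 in HSD and HFSD. BTG2, an antiproliferative factor, was 14.8 and 12.5 FPKM in ND, 3.24 and 153 in HFD, and 3.45 to 12.1 in HSD and HFSD. DUSP1 was the single gene of the list called under any alternative, without HFD replicate 1, when HFD rests on its other retina alone (limma, adjusted p = 0.0212).

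Early effectors, which act outside the nucleus or on the cell cycle, had the smallest median residual SD of the 3 lists, 0.17, beside 0.46 for the transcription factors and 0.31 for the inhibitors. CCN1, a matricellular protein, was 1.28 and 9.25 FPKM in HFD and 2.38 and 7.23 in HSD, beside 1.64 and 2.77 in ND, and was below both ND retinas in HFSD at 1.29 and 1.21. PLK3 was 3.73 and 3.8 FPKM in ND and 1.24 to 3.19 in the enriched diets. NRN1, an activity-induced neuritin, was 50.9 and 20.1 FPKM in ND and 45.7 and 50.4 in HFSD, and THBS1, thrombospondin, 1.95 and 1.9 in HFD beside 3.06 and 3.2 in ND.

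**Figure D4:**
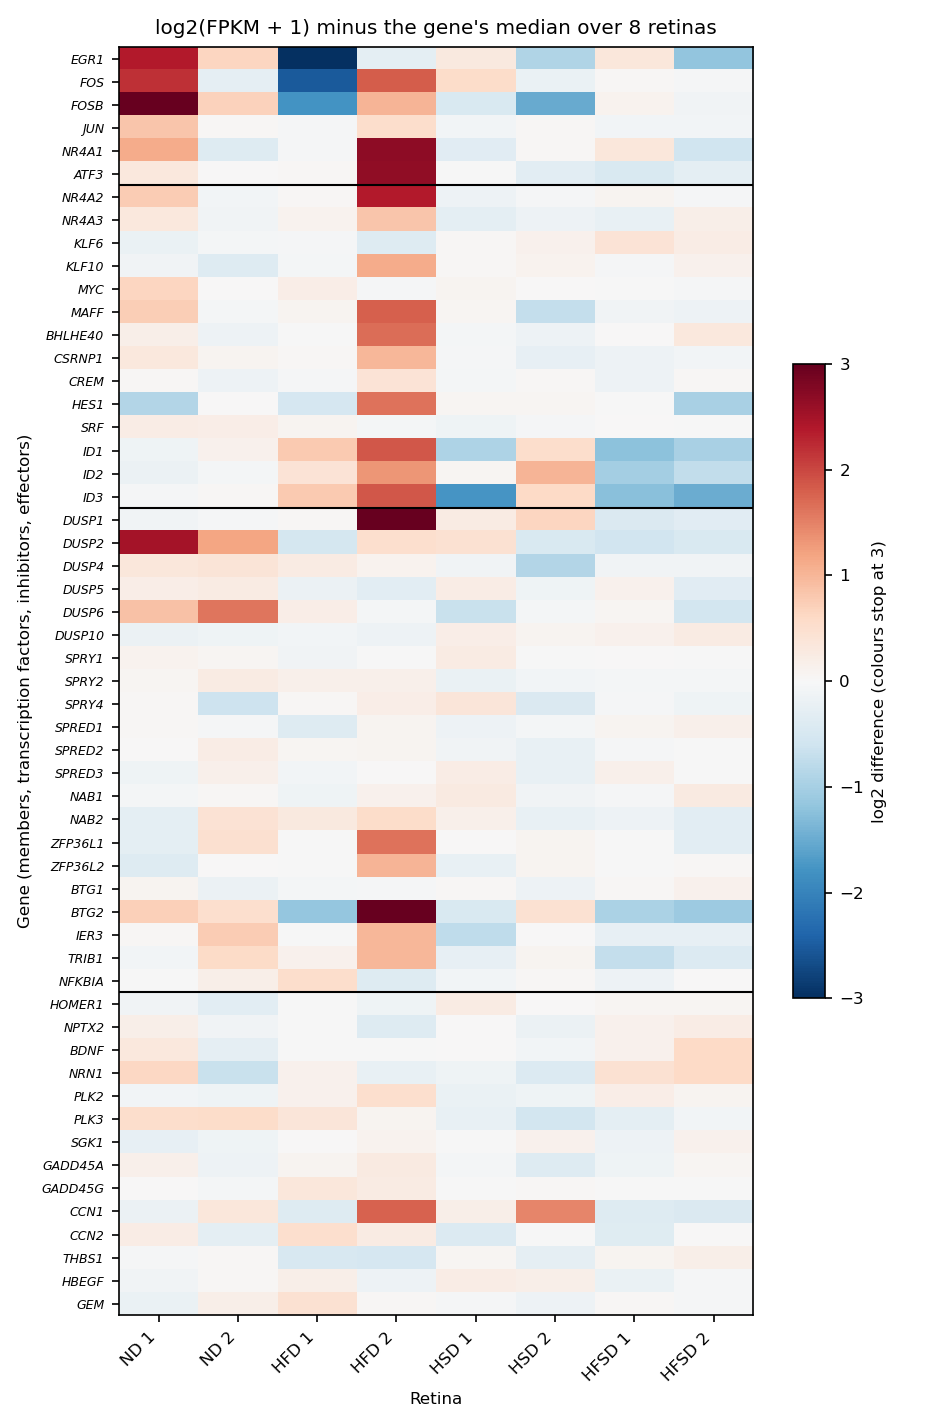
Heat map of log2(FPKM + 1) in each retina minus the gene's median over 8 retinas, for the 6 members, 14 other early transcription factors, 21 feedback inhibitors and 14 effectors (colours stop at 3). Red cells gather in ND replicate 1 for EGR1, FOS, FOSB and DUSP2 and in HFD replicate 2 for NR4A1, ATF3, NR4A2, DUSP1 and BTG2.

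HFD replicate 2 held the highest value of 21 of the 49 other early genes (42.9%), and of 11.9% of all genes tested. On the scale of FPKM + 1, it stood at least 2-fold above every other retina for 20 genes in all (0.164% of those tested). Of these 20, 2 were the members NR4A1 and ATF3 and 9 were of the wider list, namely BHLHE40, BTG2, DUSP1, HES1, ID1, ID3, MAFF, NR4A2 and ZFP36L1. ADAMTS1, CEBPB, CIART, PPP1R3C, RASD1, TMC1 and TUBE1 were 7 more, and the last 2 carried no symbol. On the same scale, ND replicate 1 stood at least 2-fold above every other retina for 25 genes (0.205%), EGR1, FOSB and DUSP2 among them. The others there included GFAP of astrocytes, the gap junction genes GJA1 and GJB6, ERMN, MAL, OPALIN and UGT8 of myelin, LRAT and DCT of the pigment epithelium, and VWF and RGS5 of vessels.

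**Figure D5:**
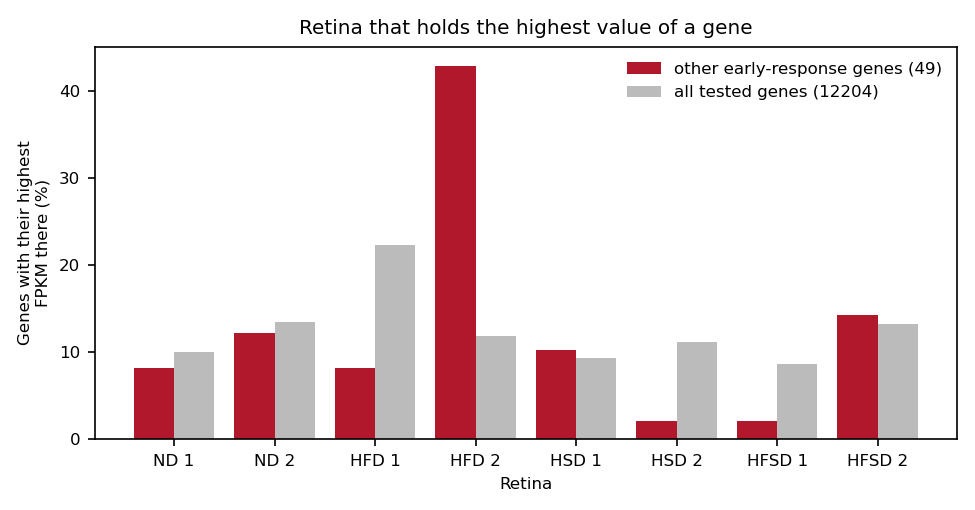
Percentage of genes whose highest FPKM lies in each retina, for the 49 other early-response genes (red) and all 12204 genes tested (grey), with bars from 0. HFD replicate 2 holds 42.9% of the early genes and 11.9% of all genes.

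Inputs to these genes were followed by mRNA alone, and their activity was not measured. Of 24 kinases and factors upstream of the early genes, CREB1 and SRF among them, limma called 0 in each comparison and in the interaction. At an unadjusted p under 0.05 it gave 2 (HFD), 3 (HSD), 2 (HFSD) and 0 (interaction). These are 8.33%, 12.5%, 8.33% and 0% of the 24, beside 4.31%, 7.2%, 8.07% and 3.74% of all genes tested. Voom also called 0 in each, with 1, 3, 2 and 0 at that limit. Their median residual SD was 0.13. Their summed level ran from 588 to 649 FPKM. The ETS factor ELK4 was 4.91 and 7.28 FPKM in HFD, below the 9.43 and 8.49 of ND, and 12.1 and 14.8 in HSD, above them. The kinase CAMK2A was 11.7 and 11.2 in HFSD beside 8.41 and 5.73 in ND, and MAPK10 42.4 and 49.7 in HFSD beside 43.2 and 29.5 in ND. Of the heat shock and unfolded protein genes (18 listed, 11 found, 10 tested), 1 peaked in HFD replicate 2, BAG3. Of all genes tested, 11.9% peaked there. The symbols HSPA1A, HSPA1B, HSPA1L, HSPB1, DNAJB1, XBP1 and ATF4 were not found, so these genes were not analysed here. DDIT3 was at 0 in all retinas. The chaperone HSPH1 was 49.2 and 41.3 FPKM in HSD and 45.4 and 47.0 in HFSD beside 34.4 and 30.2 in ND. DNAJA1 was 62.3 and 56.9 FPKM in HSD and 83.3 and 108 in HFSD beside 72.1 and 84.4 in ND. HSP90AA1 was 1456 and 1115 in HFD beside 1642 and 1353 in ND. Limma and voom called 0 of these 10 in each comparison, and each gave 0 in HFD, 1 in HSD, 1 in HFSD and 1 in the interaction at an unadjusted p under 0.05. For limma these are 0%, 10%, 10% and 10% of the 10, beside the shares of all genes given above.

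Clock genes, whose level follows the hour of the day, varied little between the retinas, with a median residual SD of 0.14. The core activator ARNTL stayed between 43.7 and 54.8 FPKM and the repressor PER2 between 5.16 and 7.81, and the summed level of 14 clock genes between 537 and 635 FPKM. PER1, PER3 and DBP were not analysed here. CIART, a repressor of the clock, was the only one of the 14 with a residual SD above that of JUN (0.48 against 0.35), with 33.2 FPKM in HFD replicate 2 and 8.68 to 13.1 in the other retinas. CLOCK itself was 17.7 and 15.3 FPKM in HFD, below the 21.9 and 20.7 of ND, and 25.8 and 25.7 in HSD, above them. NPAS2 was 4.91 and 3.49 in HSD beside 3.54 and 2.91, and RORA 33.5 and 38.6 in HFSD beside 28.2 and 24.4. Limma called 0 of the 14 in each comparison, with 2, 0, 1 and 1 at an unadjusted p under 0.05 for HFD, HSD, HFSD and the interaction, and voom called 0, with 1, 0, 1 and 0. For limma these are 14.3%, 0%, 7.14% and 7.14% of the 14, beside 4.31%, 7.2%, 8.07% and 3.74% of all genes tested.

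Markers of retinal cell types and of tissue that adjoins the retina moved with some of these results. The summed level of 10 pigment epithelium markers was 334 and 248 FPKM in ND and 27.7 to 93.9 in the 6 enriched-diet retinas, with RPE65, TTR and PMEL among those that differed most, so it was high in the same retinas as EGR1 and DUSP2. All 10 were detected, and 7 in HFD, 8 in HSD and 8 in HFSD had both retinas below both ND retinas, beside 13.3%, 19.7% and 20.6% of all genes tested. The 5 astrocyte markers summed to 1128 FPKM in ND replicate 1 and to 240 to 966 elsewhere, with GFAP at 524 FPKM there and 12.1 in ND replicate 2. Of the 10 endothelium and mural markers found (7 tested), 8 were highest in ND replicate 1, where EGR1, FOS, FOSB and JUN also peaked. Of all genes tested, 9.98% were highest in ND replicate 1. CLDN5, a tight junction gene of vessels, had 28.0 FPKM there and 1.03 in ND replicate 2, and VWF 3.77 and 0.00648. The list's sum ran from 107 to 154 FPKM, with KDR holding 75.8 to 131 of it. Ganglion and amacrine markers (12 of 14 found) summed to 763 to 1140 FPKM, with 4 of the 12 highest in ND replicate 1, beside the same 9.98% of all genes. Ganglion cell markers were higher in ND replicate 1 than in ND replicate 2, with 27.8 against 11.6 FPKM for RBPMS, 197 against 103 for THY1, 9.62 against 3.33 for POU4F1 and 9.93 against 3.37 for POU4F2. The amacrine genes GAD1 (54.7 to 62.0 FPKM) and SLC32A1 (37.2 to 42.2) varied least of the 12. Of the 12, 11 had a higher mean log2 value in HFSD than in ND, with a median difference of 0.27. Blood genes (4 of 8 found) were 82.6 FPKM in ND replicate 1 and 73.3 in HFD replicate 1, the retinas with the most and the least EGR1, and 0.701 to 42.6 elsewhere. Muscle markers (9 found) reached 573 FPKM in HSD replicate 2, beside 94.3 and 73.8 in ND and 56.8 in HSD replicate 1. Most of the sum outside HSD replicate 2 was PVALB, with 89.6 and 68.6 FPKM in ND and 52.7 in HSD replicate 1. In HSD replicate 2 PVALB was 49.1, while ACTA1 and MYL1 were 105 and 141, beside 0.0451 and 0.177 in ND replicate 1. In HFD replicate 2 the sums of blood (15.1 FPKM), pigment epithelium (50.8) and microglia markers (17.4) lay inside the range of the other retinas, and that of lens and cornea markers was the highest of the 8 at 1.06 FPKM (lowest 0.37), with LIM2 at 0 in all retinas. HFD replicate 2 also held the highest value of 4 of the 10 Müller glia markers (HES1 of the early list among them), beside 11.9% of all genes tested. Rod markers, which define the tissue, summed to 35864 to 47991 FPKM in all retinas. Müller glia markers summed to 2822 and 4066 FPKM in ND, 3403 and 3291 in HFD, and 2089 to 2238 in the 4 retinas of HSD and HFSD, where FOSB and ATF3 were also below both ND retinas. GLUL (722 to 2127 FPKM) and VIM (697 to 1090) held most of this sum. Both retinas were below both ND retinas for 3 of the 10 in HSD and 3 in HFSD, beside 19.7% and 20.6% of all genes tested. A higher mean log2 value than in ND was seen for 4 of the 10 in HSD and 2 in HFSD. Of these markers GLUL, the glutamine synthetase of Müller glia, differed from ND by -1.12 in HSD and -1.15 in HFSD on the log2 scale, and limma did not call it (adjusted p = 0.246 and 0.222). Microglia and other immune markers had both retinas below both ND retinas for 8 of the 11 found in HSD and 6 in HFSD, beside the same 19.7% and 20.6% of all genes tested. In HFD it was 0 of the 11, beside 13.3%. Only 8 of the 11 passed the filter on low values, and 7 of those 8 had a higher mean log2 value in HFD than in ND. The part of tissue make-up in the early genes was not tested, and in whole retinas fewer cells of a type and less RNA per cell cannot be told apart.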

How the data were processed

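Retinal RNA of 8 samples was extracted with TRIzol and treated with DNase I, and TruSeq libraries were sequenced on an Illumina HiSeq. The authors checked reads with FastQC, trimmed them, mapped them with TopHat2, discarded reads with several mapping places and computed FPKM with an R script. The deposited values are FPKM per gene and library. Genome build and annotation are not given in the sources used here, so no coordinates or sequences are printed. Columns of no sample numbered 0. Members, lists, tests and alternatives were chosen with earlier results of these data known.

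Limma 3.58.1 (R 4.3.3) was run with a mean-variance trend on log2(FPKM + 1) in 1 model of 4 diets, two-sided, on the 12204 protein-coding genes that reached 1 FPKM in 2 or more libraries. Benjamini-Hochberg adjustment ran over all of these, and 0.05 was the threshold. The step was tested on simulated data. Fragments and gene model lengths were recovered from the FPKM steps (12203 of the 12204 genes tested, within 0.02 of whole numbers). They cannot be fixed for the 1053 genes with a value in 1 library alone, which stayed out of the fragment counts. Named were all members, the 2 genes of each other list with the largest difference per diet (marker lists by their sums, with examples), and the 5 genes most like EGR1 and ATF3. A gene that this rule would name is not reported here. Genes named because they peak in 1 retina or lie below both ND retinas were chosen after their values were seen. The labels gave no batch. Tables were handled with Python 3.11.15, pandas 2.3.3 and numpy 2.4.6.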

Additional observations from a re-analysis of the deposited data

How the results depend on the processing

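Counts of called genes were small and moved with most settings. Over all genes, HFD went from 1 call to 13 without a filter on low values, 2 with the 4 libraries compared alone and 2 without ND replicate 1 and HFD replicate 2 together (chosen after seeing the data), and 1 to 2 with any 1 retina left out. HSD went from 7 to 3 with 4 libraries and 1 with voom, and 3 to 17 with 1 retina left out. HFSD went from 2 to 4 without a filter and 0 with 4 libraries, and 2 to 11 with 1 retina left out. The interaction went from 1 to 18 without a filter, 0 with a pseudocount of 0.1, 0 with median scaling, 0 with voom and 3 without the pair of retinas, and 0 to 10 with 1 left out. The cause was not tested. The wider early list had 0 calls under 57 of 59 alternatives and 0 to 1 in HFD and in the interaction with 1 retina left out.

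Members past the lower fold limit in HFSD rose from 3 to 5 with a pseudocount of 0.1, and ranged from 2 to 6 with 1 retina left out (6 without ND replicate 2). In HSD they ranged from 2 (without ND replicate 1) to 5, in HFD from 1 (without ND replicate 1) to 3, and members past the upper limit in HFD from 0 (without HFD replicate 2) to 3. The median difference of the members ranged from -1.97 to 0.48 in HFD, -1.63 to -0.12 in HSD and -1.71 to -0.26 in HFSD with 1 retina left out. Median scaling left it and the direction of each member as reported.

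Samples with the same replicate number did not deviate together (correlations from -0.165 to 0.081), so the numbers do not pair the samples. With a replicate block the calls over all genes were 1 in HFD, 5 in HSD, 4 in HFSD and 0 in the interaction, and 0 for the early list. Where a left-out retina leaves 1 in its diet, that retina is assumed to vary like the rest. Depth limited EGR3 alone among the members found.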
